A study of Bos taurus with 6 samples.

Results

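The unannotated transcripts of primary bovine myoblasts were described here, that is, the rows of the mRNA expression table that carry a serial identifier such as Novel00046 in place of an Ensembl gene identifier. The table listed 1716 of them among 26332 mRNA rows, and the 1685 with reads in at least 1 group were taken as members, against 20459 rows with reads in all. Of the members, 1680 could be traced back to whole reads of every library, and 5 could not. The other 31 identifiers were at 0 in both groups.

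The cells were primary myoblasts from the longissimus dorsi muscle of fetal cattle, cultured in differentiation medium. The RSV group had 3 cultures given 20 μM resveratrol, a plant polyphenol, dissolved in DMSO, for 4 days. The control group had 3 cultures given DMSO alone, so both groups carried the solvent and the differentiation medium. The sample labels give the duration for the RSV group only. The methods state independent experiments within each group, but not whether the cultures came from different animals, so the p-values measure the spread between these cultures.

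An unannotated transcript is a piece of RNA that read assembly places outside the gene models of the reference annotation. Such pieces may be long noncoding RNAs, unannotated ends or exons of known genes, or fragments of pre-mRNA, and an identifier alone does not tell these apart. Myoblasts are the proliferating precursors of muscle fibres, and they leave the cell cycle, fuse and switch on contractile genes when serum is withdrawn. The table gives these transcripts no position, length or sequence, so none is printed and no function is assigned. Levels are in normalized reads per transcript, meaning reads divided by the size factor of the library, and they are not per length: a higher value is more reads, not necessarily more molecules.

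The table holds group means, from which the reads of single libraries were recovered. The recovered libraries carried size factors between 0.886 and 1.09 and sums between 11026810 and 13188493 reads. They could not be tied to sample labels, so they are named RSV-a, RSV-b and RSV-c and DMSO-a, DMSO-b and DMSO-c in falling order of size factor. RSV-c stood apart from the other RSV libraries, and its part is given with the results it touches. Of 7 myogenic genes, 6 had settled means, from 433 to 4384 normalized reads with RSV and from 473 to 3096 with DMSO. The mean was higher in the RSV group for 5 of these 6, among them MYH7 (1065 against 473), a slow myosin heavy chain, and lower for MYL1 (433 against 617), a myosin light chain. PDGFRA, a receptor gene of fibroblasts and other connective tissue cells, was at a mean of 6903 with RSV and 9252 with DMSO. MYH3 and the other fibroblast gene looked at, THY1, had no settled mean. All these genes came from the study's list of differentially expressed mRNAs, so that they differed was known beforehand and the counts only describe them. The part of cell makeup in the results below was not tested.

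The members were mostly of low to middle level. The median member had 50.5 normalized reads, with quartiles of 20.0 and 166, whereas the median ENSBTAG row with reads had 204, with quartiles of 5.80 and 832. Means from 10 to below 100 normalized reads held 924 members (54.8%) but 14.5% of the ENSBTAG rows. Only 14 members (0.831%) had a mean below 1, against 13.6% of the ENSBTAG rows, and 71 members (4.21%) were at 1000 or more, against 21.3%. Of the 1680 members with recovered reads, 1636 (97.4%) had reads in all 6 libraries, against 79.1% of the ENSBTAG rows with recovered reads. These shares were not matched for level, and read assembly itself starts from reads.

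The share of all recovered reads that fell on unannotated transcripts was nearly the same in both groups. It was 2.83% in RSV-a, 2.73% in RSV-b and 2.91% in RSV-c, and it was 2.81% in DMSO-a, 2.68% in DMSO-b and 2.71% in DMSO-c. The groups overlapped, with means of 2.83% ± 0.0919 (SD, n = 3) for RSV and 2.73% ± 0.0702 (SD, n = 3) for DMSO. The difference of 0.0937 percentage points did not pass a two-sided exact permutation test (p = 0.20, where 3 against 3 libraries cannot go below 0.10). These shares leave out rows whose reads were not all recovered, among them the 5 members with the most reads. The RSV over DMSO ratios of those 5 were 2.73, 2.28, 1.06, 0.953 and 0.885. In these bulk cultures, fewer cells of a type and less RNA per cell cannot be told apart.

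Of the 1680 members with recovered reads, 1505 reached a mean of 10 normalized reads and were tested. The RSV and DMSO groups differed for 410 of them (27.2%) at an adjusted p under 0.05 by limma voom fitted over all rows, against 33.8% of all 14727 rows tested. The up-regulated members numbered 180 (11.96%), against 16.7% of all rows, and the down-regulated members 230 (15.3%), against 17.1%. Changes of at least 1 on the log2 scale were a larger part of the members: 169 (11.2%) were called with such a change, 81 up and 88 down, against 6.68% of all rows. That share was not matched for level, and the members had the lower median level. The libraries of both groups did not overlap for 707 members (47.0%), against 53.3% of all rows. The count of called members rested on every DMSO library, since it was 190 without DMSO-a, 208 without DMSO-b and 180 without DMSO-c, and it was 270 without RSV-a, whereas it was 473 without RSV-b and 490 without RSV-c. The share of all rows called moved alike: 17.8%, 18.3% and 16.7% without DMSO-a, DMSO-b and DMSO-c. That share was 23.6%, 37.1% and 42.4% without RSV-a, RSV-b and RSV-c. The excess of down-regulated over up-regulated members turned with total reads as the scaling (201 up, 196 down) and without RSV-b (249 up, 224 down).

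**Figure D1:**
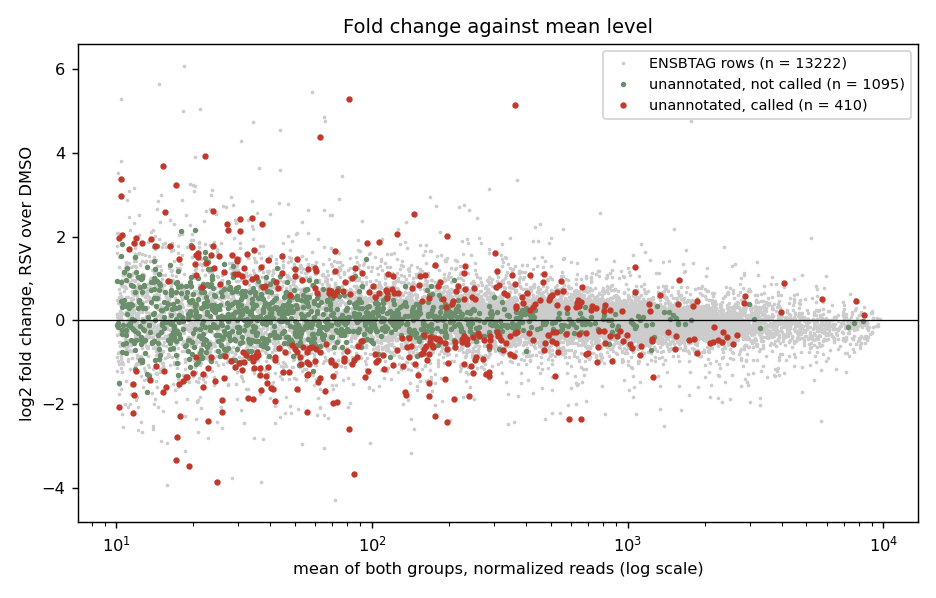
Log2 fold change of RSV over DMSO against the mean of both groups in normalized reads on a log axis, for the 1505 unannotated transcripts tested (red, called; green, not called) over the 13222 ENSBTAG rows tested (grey). The 410 called transcripts lie on both sides of 0, and the 3 highest red points are Novel00047, Novel00046 and Novel00689.

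When the ENSBTAG rows were weighted to the members' distribution over level classes, each a doubling of the mean, 27.1% of them were called, beside the 27.2% of the members. The median size of the log2 fold change, averaged over these classes, was 0.42 in members and 0.40 in ENSBTAG rows. The direction of the calls differed from that of the ENSBTAG rows at matched level. Up-regulated were 11.96% of the members and 15.5% of the ENSBTAG rows, and down-regulated were 15.3% and 11.5%. This order, fewer up and more down than ENSBTAG rows, was found in all 12 fits that could be compared, the 6 that left out a library included. Rows are not replicates, so these shares are a description and carry no test.

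The level classes were also pooled on either side of a mean of 128 normalized reads. Below that mean, 208 of 1011 members (20.6%) were called, against 23.3% of ENSBTAG rows at the same levels, and the median size of the log2 fold change was 0.47 in members and 0.48 in ENSBTAG rows. From a mean of 128 on, 202 of 494 members (40.9%) were called, against 34.8%, and the median sizes were 0.29 and 0.23. The shares called were still alike between 128 and 256, at 33.2% of 217 members and 32.8% of ENSBTAG rows. Between 256 and 512 they were 40.3% and 32.1%. The gap in median size was widest in the highest classes. Between means of 1024 and 2048 the median size was 0.34 for 43 members and 0.18 for 2107 ENSBTAG rows, and from 2048 on it was 0.40 for 22 members and 0.20 for 1503 ENSBTAG rows. The signed median was 0.01 for all members tested and 0.01 for all rows tested. By class, the median of the members went from 0.15 between means of 10 and 16 to -0.11 from 2048 on, and that of the ENSBTAG rows from 0.06 to -0.10.

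**Figure D2:**
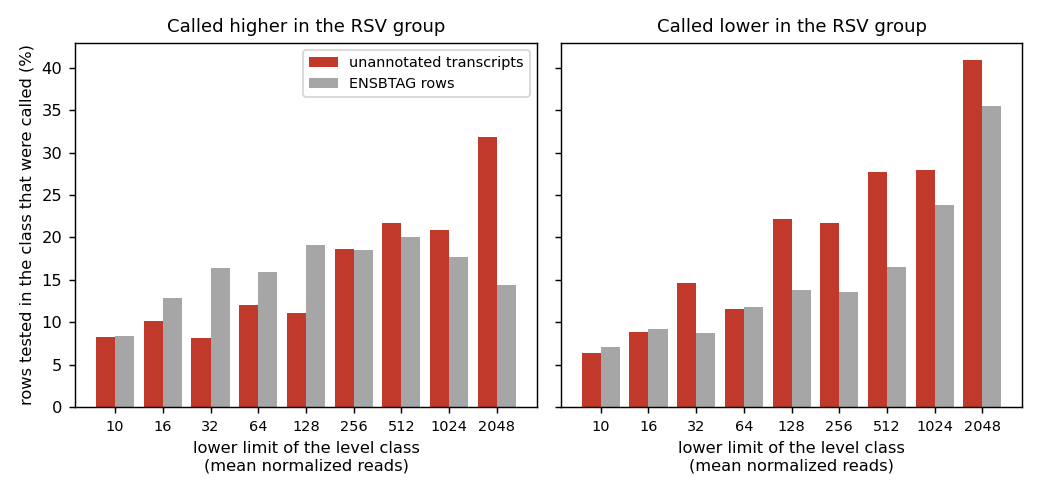
Percent of the rows tested in each level class that were called higher (left) or lower (right) in the RSV group, for unannotated transcripts (red) and ENSBTAG rows (grey), with the lower limit of each class in mean normalized reads on the x axis. From a mean of 128 on, the red bars of the right panel stand above the grey bars in every class. In the classes that start at 10, 16 and 64 they stand slightly below them. In the left panel the red bars stand below the grey bars in the 5 classes that start at 10 to 128, and above them from 256 on.

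On average over the level classes, the replicate spread of the members was close to that of ENSBTAG rows. The coefficient of variation over the 3 libraries had a median of 15.4% in DMSO and 20.4% in RSV for members, averaged over the level classes, and of 14.8% and 19.2% for ENSBTAG rows weighted alike. It was larger in RSV than in DMSO for 1006 of the 1505 members (66.8%) and for 63.5% of the ENSBTAG rows at matched level. In every class from a mean of 128 on, the median of the members was above that of the ENSBTAG rows in both groups. From 2048 on it was 3.9% in DMSO and 8.2% in RSV for members, against 3.0% and 6.2% for ENSBTAG rows.

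The largest increases were those of Novel00046 and Novel00047, which have consecutive identifiers. Novel00046 had 657 normalized reads in RSV-a, 684 in RSV-b and 778 in RSV-c, and 14.5, 20.8 and 24.8 in DMSO-a, DMSO-b and DMSO-c. Its mean was 35.2-fold higher in the RSV group, at a log2 fold change of 5.14 (SE 0.27, adjusted p = 3.86e-05). Novel00047 had 154, 138 and 186 normalized reads with RSV, against 4.15, 3.13 and 3.39 with DMSO, which came from 4, 3 and 3 reads. Its mean was 44.8-fold higher at a log2 fold change of 5.28 (SE 0.41, adjusted p = 0.000169). For both transcripts every RSV library lay far above every DMSO library, and both were called whichever library was left out.

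Novel00689 was also near the lower limit of detection in the controls. It had 116, 129 and 114 normalized reads in RSV-a, RSV-b and RSV-c, and 4.15, 9.38 and 3.39 in the DMSO libraries, a 21.2-fold higher mean (log2 fold change 4.39, SE 0.36, adjusted p = 0.000223). Novel01011 had 234, 235 and 280 in RSV against 44.6, 40.6 and 40.6 in DMSO, 5.95-fold higher (log2 fold change 2.55, SE 0.18, adjusted p = 0.000121). Novel01273 had 283, 288 and 374 in RSV against 77.8, 71.9 and 80.1 in DMSO (log2 fold change 2.02, SE 0.18, adjusted p = 0.000337). In all 3 every RSV library lay above every DMSO library, and the DMSO libraries of Novel01011 and Novel01273 lay closer together than those of Novel00689.

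Among the other transcripts of the 10 largest increases, Novel00875, Novel01312 and Novel00557 had a wide spread in the RSV group. Novel00875 had 186, 121 and 309 normalized reads in RSV against 50.8, 34.4 and 53.0 in DMSO, with a log2 fold change of 2.06 (adjusted p = 0.0124), and it passed the threshold neither without DMSO-a (adjusted p = 0.0550) nor without DMSO-b (0.0624). Novel01312 had 124, 99.7 and 291 in RSV against 51.9, 32.3 and 40.6 in DMSO (log2 fold change 1.89, adjusted p = 0.0273), and its call was lost without DMSO-a, DMSO-b or DMSO-c (0.0838, 0.107 and 0.0899). Novel00557 had 99.3, 102 and 259 in RSV against 28.0, 44.8 and 42.9 in DMSO (log2 fold change 1.85, adjusted p = 0.0263), and was likewise lost without any 1 of the DMSO libraries (0.105, 0.0845 and 0.0809). For each of them RSV-c was the highest library. Novel00253 rose from a mean of 35.6 to 108 (log2 fold change 1.66) and Novel01215 from 146 to 461 (log2 fold change 1.62), and both were called whichever library was left out.

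**Figure D3:**
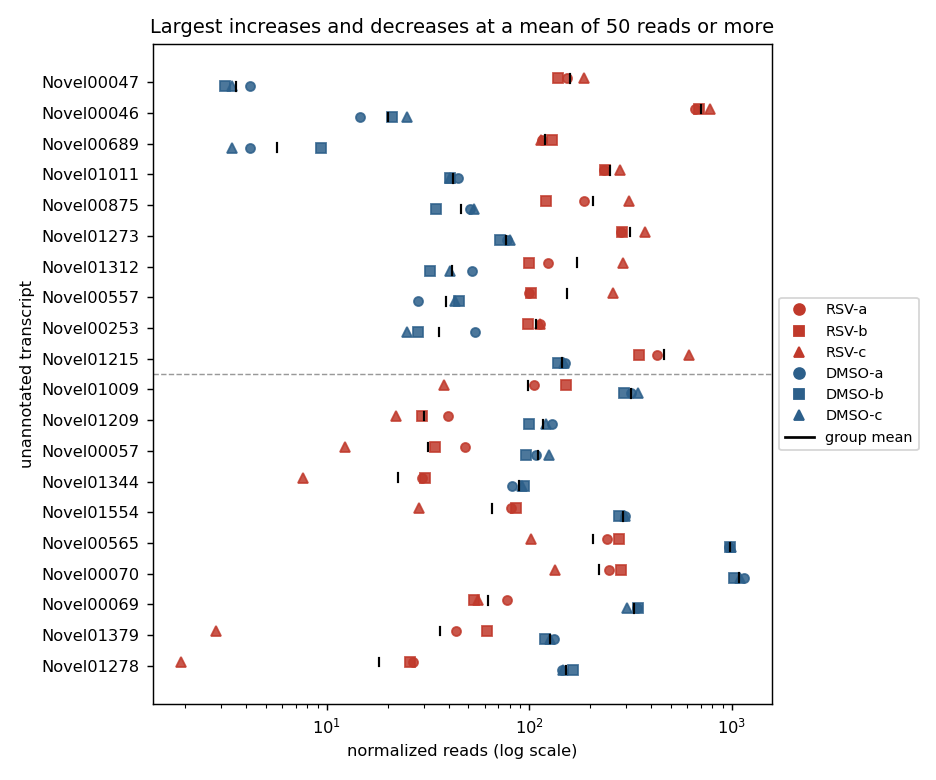
Normalized reads on a log axis for the 10 largest increases (above the dashed line) and the 10 largest decreases (below it) among called unannotated transcripts with a mean of 50 or more, with 1 point per library (red, RSV; blue, DMSO) and a black tick at each group mean. No RSV point overlaps the DMSO points of the same transcript, and the red triangle of RSV-c is the lowest RSV point in 9 of the 10 decreases and the highest in 8 of the 10 increases.

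Among the decreases, Novel00069 and Novel00070 also have consecutive identifiers. Novel00069 had 77.2, 53.5 and 56.0 normalized reads in RSV-a, RSV-b and RSV-c, against 341, 343 and 305 in the DMSO libraries, a 5.30-fold lower mean (log2 fold change -2.41, SE 0.16, adjusted p = 0.000101). Novel00070 had 246, 282 and 134 in RSV against 1142, 1028 and 1093 in DMSO, a 4.93-fold lower mean (log2 fold change -2.36, SE 0.21, adjusted p = 0.000293). In both, every RSV library was far below every DMSO library, and Novel00070 held the more reads.

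Novel00565 gave another large fall at a high level, with 242, 276 and 102 normalized reads in RSV against 964, 974 and 984 in DMSO (log2 fold change -2.35, SE 0.27, adjusted p = 0.000830). Novel01554 had 80.9, 85.8 and 28.5 in RSV against 296, 276 and 296 in DMSO (log2 fold change -2.29, SE 0.31, adjusted p = 0.00173). In both, the DMSO libraries lay close together, and RSV-c was well below RSV-a and RSV-b.

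The steepest fold change of the decreases rested in part on RSV-c. Novel01278 had 26.7 and 25.8 normalized reads in RSV-a and RSV-b but 1.90 in RSV-c, which was 2 reads, against 145, 165 and 147 in the DMSO libraries (log2 fold change -3.66, SE 0.65, adjusted p = 0.00528). Novel01379 had 43.2, 61.8 and 2.85 in RSV against 133, 120 and 126 in DMSO (log2 fold change -2.59, SE 0.76, adjusted p = 0.0319), and it lost its call without DMSO-a, DMSO-b or DMSO-c (adjusted p = 0.0885, 0.0824 and 0.0823) and under limma-trend (0.0571). The remaining decreases of this group, Novel01344, Novel00057, Novel01209 and Novel01009, had log2 fold changes of -2.19, -1.97, -1.95 and -1.88, and each was called whichever library was left out.

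The 5 smallest adjusted p-values in each direction included transcripts with small as well as large fold changes. Novel00627 had 1515, 1507 and 1532 normalized reads in RSV against 598, 644 and 635 in DMSO, a 2.43-fold higher mean (log2 fold change 1.28, SE 0.06, adjusted p = 2.73e-05). Novel00497 had 685, 606 and 632 in RSV against 302, 312 and 279 in DMSO (log2 fold change 1.10, SE 0.09, adjusted p = 0.000181). Novel00515 fell from 2735, 2756 and 2774 in DMSO to 1905, 1978 and 1912 in RSV, a fold change of only 1.43 in the means (log2 fold change -0.51, SE 0.05, adjusted p = 0.000398). The groups of these 3 transcripts did not overlap, and the libraries within each lay close together. Novel00768 (log2 fold change -0.54, adjusted p = 0.000688) and Novel01087 (log2 fold change -1.10, adjusted p = 0.000544) completed the 5 smallest values for decreases, with Novel00069, Novel00070 and Novel00515, and Novel00046, Novel00047 and Novel01011 completed those for increases.

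The 5 members with the most reads were those whose single-library reads were not all recovered, so they entered no test. Novel00473 had a mean of 19229 normalized reads with RSV, against 6511, 7471 and 7122 in DMSO-a, DMSO-b and DMSO-c, a mean of 7035, so that the RSV mean was 2.73-fold higher. Novel01136, Novel01376, Novel01142 and Novel01591 had means of 10000 or more whose decimal point could not be placed, and only their ratio of RSV over DMSO was settled. It was 2.28 for Novel01136, 1.06 for Novel01142, 0.953 for Novel01591 and 0.885 for Novel01376. No spread between RSV libraries stands behind these ratios.

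Of the 66 further members at a mean of 1000 or more, 38 were called, 16 up and 22 down, with log2 fold changes between -1.35 and 1.28. Between means of 1024 and 2048, 48.8% of 43 members (20.9% up, 27.9% down) and 41.5% of ENSBTAG rows (17.8% up, 23.8% down) were called. From 2048 on, 72.7% of 22 members (31.8% up, 40.9% down) and 49.9% of ENSBTAG rows (14.4% up, 35.5% down) were called. The examples that follow were chosen after their values were seen. Novel00105, with 8252, 8387 and 8223 normalized reads in RSV and 7983, 8755 and 8279 in DMSO, did not pass the test (log2 fold change -0.01, SE 0.05, adjusted p = 0.917). Novel00335 passed it with a small change, from 7966, 7922 and 8042 in DMSO to 8815, 8745 and 8839 in RSV (log2 fold change 0.14, SE 0.04, adjusted p = 0.0397). Novel01686 was at 6395, 5947 and 7968 in RSV and at 4577, 5123 and 4523 in DMSO (log2 fold change 0.50, SE 0.11, adjusted p = 0.0101). The groups overlapped for Novel00105 and lay apart for the other two.

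RSV-c was the extreme RSV library of most called members. Among the 180 up-regulated members it was the highest RSV library for 128 (71.1%), and among the 230 down-regulated members it was the lowest for 176 (76.5%). The shares among called ENSBTAG rows were near these, at 65.4% and 73.0%. Among the 1095 members not called, RSV-c was the highest RSV library for 525 (47.9%) and the lowest for 385 (35.2%). Leaving RSV-c out gave 490 called members, 393 of them among the 410, and none of these 393 turned its direction. For 408 of the 410 the groups did not overlap, so leaving out a library could not turn those.

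**Figure D4:**
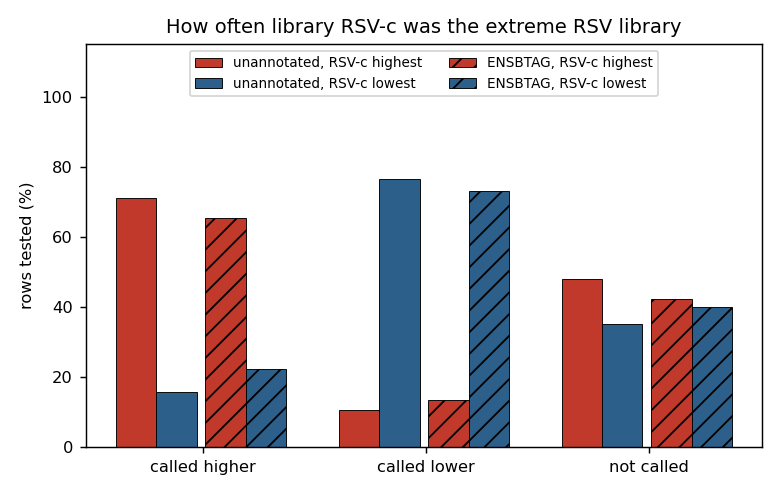
Percent of the rows tested in which RSV-c was the highest (red) or the lowest (blue) of the 3 RSV libraries, for unannotated transcripts (plain) and ENSBTAG rows (hatched), by call. Among unannotated transcripts RSV-c was the highest in 71.1% of those called higher and the lowest in 76.5% of those called lower.

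Large changes of consecutive identifiers mostly had the same direction. Of the 169 members called with a log2 fold change of at least 1 in size, 44 had a neighbour in number that was called with such a change as well, which made 23 consecutive pairs. Both members of a pair moved the same way in 21 of the 23, 9 up and 12 down, and the other 2 were opposite. At other distances the counts were lower: 7 of 16 pairs 2 numbers apart, 8 of 21 pairs 3 apart, 4 of 15 pairs 4 apart, 7 of 14 pairs 5 apart and 8 of 19 pairs 50 apart had the same sign. Across all 1321 consecutive pairs tested, the relation was weak, with Pearson's r of 0.09 and Spearman's rho of 0.06, and 51.6% of pairs had the same sign. Whether the numbers follow genome order is not given in the sources used here, and whether neighbours share a gene or reads was not tested.

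**Figure D5:**
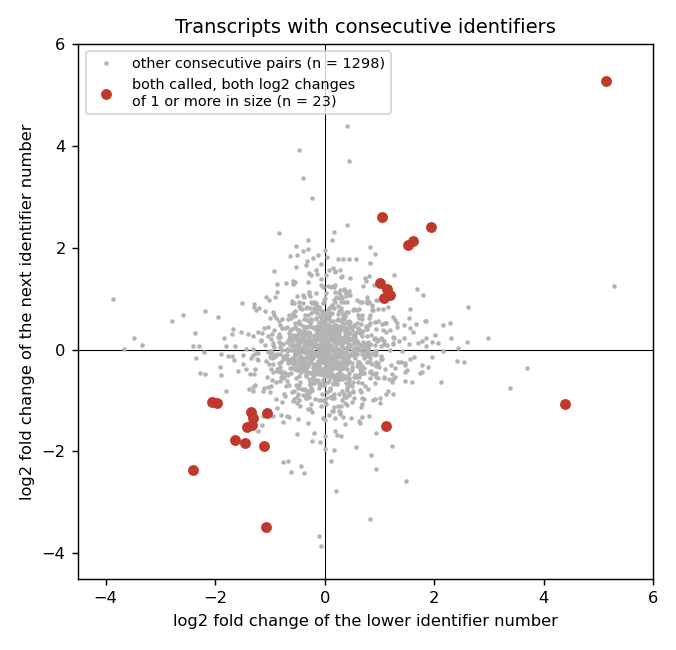
Log2 fold change of each tested unannotated transcript against that of the transcript with the next identifier number (grey), with the 23 pairs in which both were called with a change of at least 1 in size in red. The red points fall into the upper right and the lower left of the plot except for 2.

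The longest run was Novel00268, Novel00269, Novel00270 and Novel00271, all up-regulated, with log2 fold changes of 1.18, 1.08, 1.01 and 1.30. Novel00271 had 358, 310 and 321 normalized reads in RSV against 158, 112 and 133 in DMSO (SE 0.14, adjusted p = 0.000665), and Novel00269 had 245, 232 and 182 against 120, 89.6 and 102 (SE 0.17, adjusted p = 0.00355). The 4 transcripts differed in level but not in direction, and each of them was called whichever library was left out.

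A run of decreases lay at Novel00974 and Novel00975. Novel00975 had 723, 929 and 514 normalized reads in RSV against 1823, 1751 and 1807 in DMSO (log2 fold change -1.35, SE 0.17, adjusted p = 0.00125). Novel00974 had 329, 412 and 180 in RSV against 669, 711 and 807 in DMSO (log2 fold change -1.32, SE 0.24, adjusted p = 0.00554). In both, RSV-b was the highest and RSV-c the lowest RSV library. The next identifier, Novel00976, looked up after its values were seen, had 0 reads in all RSV libraries and 10, 5 and 1 reads in DMSO-a, DMSO-b and DMSO-c, which was too few for the test.

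The pairs that follow had lower means than Novel00974 and Novel00975. Novel01574 and Novel01575 rose by log2 fold changes of 1.94 and 2.41, Novel01540 and Novel01541 by 1.05 and 2.60, and Novel00874 and Novel00875 by 1.51 and 2.06. Novel01335 and Novel01336 fell, with log2 fold changes of -1.07 and -3.48. Novel01336 had 2.76, 6.46 and 0.949 normalized reads in RSV against 34.2, 41.7 and 29.3 in DMSO, so the RSV values came from few reads. Novel00162 and Novel00163 had -1.46 and -1.84, Novel01565 and Novel01566 -1.64 and -1.77, and Novel01256 and Novel01257 -1.11 and -1.89. The other 8 pairs of 1 direction were Novel00781 with Novel00782 and Novel01371 with Novel01372, up-regulated, and Novel00057 with Novel00058, Novel00177 with Novel00178, Novel00277 with Novel00278, Novel00553 with Novel00554, Novel01090 with Novel01091 and Novel01350 with Novel01351, down-regulated. Their log2 fold changes lay between 1.14 and 2.13 for the increases and between -2.07 and -1.02 for the decreases. All of these passed the test.

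The 2 opposite pairs were Novel00689 with Novel00690 and Novel01309 with Novel01310. Novel00690 had 7.35, 9.23 and 10.4 normalized reads in RSV against 14.5, 20.8 and 23.7 in DMSO (log2 fold change -1.08, adjusted p = 0.0402), a call lost with 4 of the 6 libraries left out in turn, next to the large rise of Novel00689. Novel01309 rose with a log2 fold change of 1.11 and Novel01310 fell with -1.51, both on means below 40 normalized reads.

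The calls behind the pairs varied with the libraries. Of the 44 transcripts, 20 were called whichever library was left out and 24 lost the call at least once. The number of pairs was 12 without RSV-a, 37 without RSV-b, 18 without RSV-c, 9 without DMSO-a, 8 without DMSO-b and 7 without DMSO-c. The share with the same sign ranged from 72.2% without RSV-c and 75.7% without RSV-b to 100% without DMSO-b or DMSO-c.

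Hardly any member lacked reads in a whole group. No called member had 0 reads in all libraries of a group, and in all 1685 only 4 had 0 reads in every RSV library and 3 in every DMSO library, which is 0.237% and 0.178%. Of the ENSBTAG rows with reads, 3.71% were at 0 in every RSV library and 5.08% in every DMSO library. These shares were not matched for level: 0.831% of the members but 13.6% of the ENSBTAG rows had a mean below 1. Read assembly also starts from reads, whereas ENSBTAG rows come from the annotation, so the shares are not like for like. Apart from Novel00976 with 16 reads in sum, no such member had more than 4 reads in all.

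Some members varied more within a group than between groups. The widest spread at a mean of 200 or more was that of Novel01280, picked for that spread, with 319, 278 and 1384 normalized reads in RSV-a, RSV-b and RSV-c and 708, 969 and 297 in DMSO-a, DMSO-b and DMSO-c. The group means were 660 and 658, and the test was not passed (log2 fold change -0.27, SE 0.63, adjusted p = 0.761). High and low libraries occurred in both groups.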

How the data were processed

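RNA of 3 RSV and 3 DMSO cultures was sequenced as paired-end reads on an Illumina HiSeq. The authors divided read counts by DESeq size factors and deposited the mean of each group, along with their own fold changes and p-values, which are not used as results. The mRNA aligner, assembler and annotation are not given in the sources used here. Most deposited means of 1 or more had lost the decimal point. Each was rewritten as whole reads over 3 size factors found from the table itself, with a search up to a mean of 10000, and digits of the deposited log2 fold change placed the point where needed. Of 20459 rows with reads, 20157 had their reads recovered, and 288 means stayed unsettled.

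The main test was limma voom (R 4.3.3 with limma 3.58.1), two-sided, on recovered reads of every row that averaged 10 or more normalized reads, with Benjamini-Hochberg adjustment over all of them and a threshold of 0.05. Python 3.11.15 (scipy 1.17.1, numpy 2.4.6, pandas 2.3.3, numba 0.67.0) did the rest, and matplotlib 3.10.9 drew the figures. All steps were tested on simulated data. The median log2 ratios of group means by level used a pseudocount of 0.5. The fold changes of the means of single transcripts used none. Named transcripts were the 5 highest means, the 10 largest called changes per direction at a mean of 50 or more, the 5 smallest adjusted p-values per direction, called consecutive identifiers that both changed by at least 1 on the log2 scale, and called transcripts at 0 in a group (none). The members, lists and tests were chosen with earlier results of these data known. Marker symbols came from the study's sheet of DE mRNAs, which holds no other genes. The miRNA rows were not analysed here.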

Additional observations from a re-analysis of the deposited data

How the results depend on the processing

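No paired analysis was possible because the recovered libraries carry no replicate number. The count of called members was 410 and stayed within 1.5 times under limma-trend (429), other scalings (397 and 416), minimum means of 1 (402) and 50 (290) and a fit of the unannotated transcripts alone (342), whereas a log2 fold change of at least 1 left 169 (81 up, 88 down). Leaving out a library gave 180 to 490 called, 65 to 249 up and 112 to 254 down. The 62 named transcripts with a test kept their direction in all 659 refits, and 81 of these missed the threshold, 75 of them with a library left out. Their groups did not overlap in the main fit, so leaving out a library could not turn the direction. The share of reads on members was higher in RSV in every setting, by 0.0497 to 0.141 percentage points with a library left out and by 0.199 from the sums of group means.

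Members and ENSBTAG rows at matched level were close in their median log2 ratio on average, though no test was run: the difference was 0.0025. It turned to -0.016 with a pseudocount of 10 and to -0.028 with a minimum mean of 10, and ranged from -0.0084 to 0.042 with a library left out. By level, the widest gap lay between means of 1 and 10, at 0.374 for 161 members and 0.037 for ENSBTAG rows. From 10 to 100, 100 to 1000 and 1000 on, the medians were 0.067, -0.0001 and -0.066 for members. Those of the ENSBTAG rows were 0.091, 0.034 and -0.058. The difference in percent called at matched level (0.174 percentage points) turned to -0.426 under limma-trend and to -1.19 with total reads, was 2.19 at a minimum mean of 50, and ranged from -1.90 to 1.23 with a library left out. Pearson's r of consecutive identifiers (0.093) was 0.191 at a minimum mean of 50, 0.081 to 0.103 with a library left out, and 0.0078, -0.022, -0.067, -0.017 and -0.076 at 2, 3, 4, 5 and 50 numbers apart. The share of large pairs with the same sign (91.3%) was 72.2% to 100% with a library left out, and 43.8%, 38.1%, 26.7%, 50% and 42.1% at those distances. The cause of these shifts was not tested. The alternatives without a library for matched levels and neighbours, and the refits of the matched percent called, were chosen after seeing the data.

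The reads were recovered from rounded group means, so an error in the recovery would not show in the spread. Depth limits the members below about 10 normalized reads, of which 175 were not tested.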
